A study of Homo sapiens with 6 samples.

Results

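MYBL2 encodes B-Myb, a transcription factor of the Myb family, and the subject here is the set of peaks that RNA recovered with an anti-RBM8A antibody formed over this gene. The members are all peaks of the 3 deposited lists that overlap the interval of MYBL2, chromosome 20 from 42295659 to 42345136 in hg19, a span of 49478 bp. There were 12 such peaks, of 5437 in the 3 lists together and of 293 on chromosome 20. The gene was chosen by the peaks of these same lists, whose fold enrichment over it was high and which recurred in all 3 replicates. Its number of peaks, their recurrence and their enrichment are therefore given as a description, without a test. No peak was near the border of the interval from outside. The closest peak before it ended 2.18, 2.15 and 2.59 Mb away in replicates 1, 2 and 3, and the closest after it began 0.712, 0.712 and 0.788 Mb away. The closest peak on the inside began 546 bp after the start of the interval, and the one closest to the other border ended 107 bp before it.

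The study profiled RNA by immunoprecipitation and sequencing (RIP-seq) in AGS, an established human gastric adenocarcinoma cell line, labelled wild type and left untreated in normal growth. The group used here is the 3 immunoprecipitates with the anti-RBM8A antibody, numbered as replicates 1 to 3. The other 3 samples are input RNA of the same cells, and they were not analysed here. The purpose stated for the series is to find RNA targets of RBM8A. No sample is labelled as an immunoprecipitate with a control antibody. RNA held on the beads in other ways therefore cannot be told apart from RNA bound through RBM8A. The labels do not tell whether the replicates come from separate cultures, so their spread may be technical. The lists hold no read totals and no RNA levels. Sequencing depth, the level of MYBL2 RNA in the cells and marker genes of the cell line were thus out of reach.

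B-Myb works with the MuvB core proteins and with FOXM1 to switch on genes needed for the G2 phase and mitosis, among them genes of the spindle and of cytokinesis. Its own gene is a classic target of E2F factors. It is silent in resting cells, active in dividing cells and often highly expressed in tumours. RBM8A, also named Y14, forms a heterodimer with MAGOH. Together with EIF4A3 they make up the core of the exon junction complex, which splicing leaves on RNA a short way upstream of exon-exon junctions and which takes part in RNA export, translation and nonsense-mediated decay. Exons and introns could not be drawn under the peaks, since no annotation or sequence of hg19 was used. RefSeq's table for GRCh38.p14 lists MYBL2 as a protein-coding gene with 2 transcripts on the plus strand. Its 5′ end is therefore on the side of the lower coordinates, and distances below run from there. The protein-coding genes beside it in that table are IFT52 before and GTSF1L after.

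The number of peaks over MYBL2 was 4 in replicate 1, 3 in replicate 2 and 5 in replicate 3, with a mean of 4 ± 1 (SD, n = 3). They covered 28.3 kb, 41.4 kb and 36.1 kb of the interval. This is 57.2%, 83.6% and 73.1% of its length, a mean of 71.3% ± 13.3 (SD, n = 3). The replicate with the fewest peaks thus covered the most. Over all of chromosome 20, peaks covered 0.634%, 0.763% and 0.574%. On that chromosome, MYBL2 held 4 of 76, 3 of 128 and 5 of 89 peaks.

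In replicate 1, the 4 peaks ran from 42302467 to 42310736, 42311707 to 42315634, 42320851 to 42328665 and 42331940 to 42340215. Their widths were 8270, 3928, 7815 and 8276 bp. The stretches between them were free of peaks in that replicate, as were the first 6808 bp and the last 4921 bp of the gene. In replicate 2, a peak from 42302497 to 42310729 with a width of 8233 bp was followed by one from 42311469 to 42343652, which was 32184 bp wide. A small peak of 959 bp, from 42344071 to 42345029, closed the gene. The wide peak spans the ground of the last 3 peaks of replicate 1 and the gaps between them. In replicate 3, the peaks lay from 42296205 to 42300687, 42302452 to 42315303, 42320920 to 42328479, 42331652 to 42340140 and 42341666 to 42344427. Their widths were 4483, 12852, 7560, 8489 and 2762 bp. The peak at the 5′ end of the gene was listed in replicate 3 and in neither of the others.

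**Figure D1:**
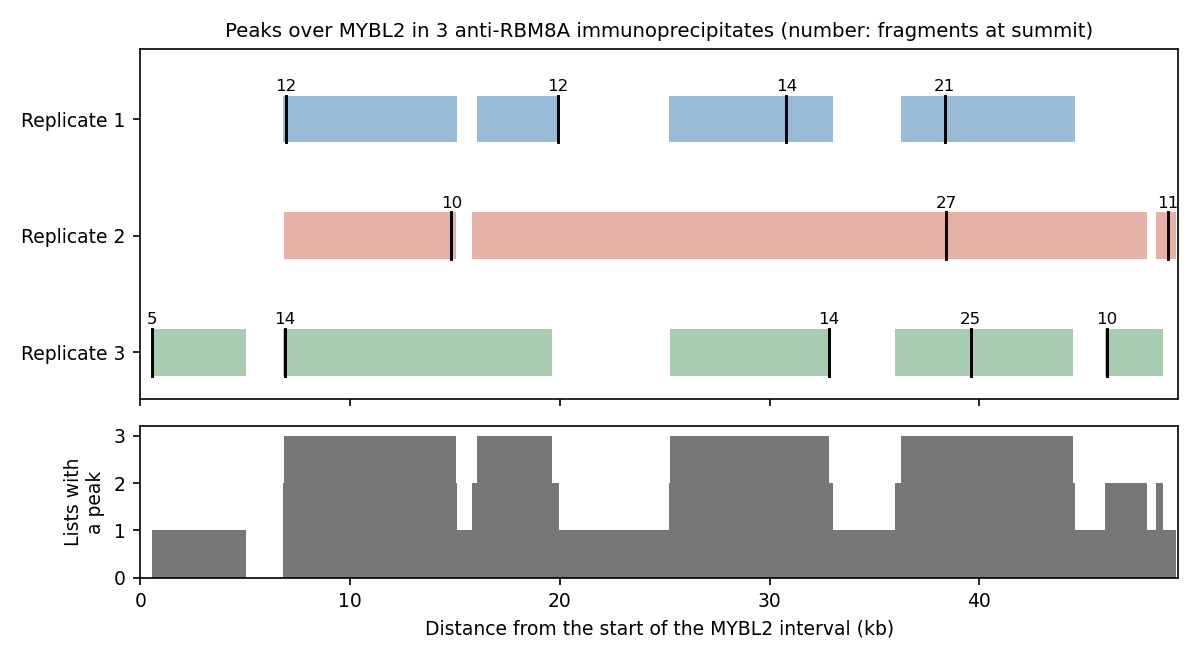
Upper panel: peaks (coloured bars) of the 3 replicates along the MYBL2 interval, with distance from its start in kb on the horizontal axis, a black line at each summit and the number of fragments there. Lower panel: number of lists with a peak at each base; 4 blocks reach all 3 lists, and the first 6.79 kb hold a peak of replicate 3 alone.

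Base by base, 55.8% of the interval (27591 bp) lay under a peak in all 3 lists, 7.21% in 2 lists, 32.1% in 1 list and 4.88% in none. The bases common to all lists formed 4 blocks. The first block ran from 6.84 to 15.07 kb from the gene start (8233 bp), the next from 16.05 to 19.64 kb (3597 bp), the following from 25.26 to 32.82 kb (7560 bp), and the last from 36.28 to 44.48 kb (8201 bp). Between the blocks, peaks of single lists bridged the gaps. Replicate 3 alone covered 732 bp between the first and second block, and replicate 2 alone covered 5216 bp and 2986 bp between the later ones. No base of the gene's first 546 bp was under a peak in any list.

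Several peaks began or ended at nearly the same bases in different replicates, although they were kilobases wide. The peaks that open the first block started at 42302467, 42302497 and 42302452 in replicates 1, 2 and 3, within 45 bp of each other. The first block's peaks of replicates 1 and 2 ended 7 bp apart, at 42310736 and 42310729. In replicate 3 the peak ran on through the second block. There it ended 331 bp short of the end in replicate 1. Around the third block, replicates 1 and 3 started 69 bp apart and ended 186 bp apart. Around the last block, they started 288 bp apart and ended 75 bp apart. The wide peak of replicate 2 shared its start with the second peak of replicate 1 to within 238 bp and no end with any other peak to within 350 bp. Such agreement was less common over MYBL2 than in the whole lists. Of the 14 pairs of overlapping peaks from different lists over MYBL2, 4 had starts within 100 bp (28.6%) and 2 had ends within 100 bp (14.3%). Among all 2391 such pairs in the lists, 38.6% had starts and 37.6% had ends within 100 bp. The median differences over MYBL2 were 5711 bp for starts and 3474.5 bp for ends, against 189 and 199 bp over all pairs. The wide peak of replicate 2 is part of 7 of the 14 pairs.

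Recurrence depended on how a position was counted. Joined wherever they overlapped by at least 1 bp, the 12 peaks made 2 positions. One of them, from 42302452 to 42345029, held 11 peaks of all 3 lists, and the other was the 5′ peak of replicate 3. Over the genome, 433 of 3584 joined regions held all 3 lists, with a median of 3 peaks and a length of 3947 bp. More than 11 peaks were joined in 1 of the 433 regions, and 26 were longer than the 42578 bp over MYBL2. On chromosome 20, 23 regions held all lists, and 0 of the others had more peaks or were longer. When both peaks had to share at least 50% of their length, 8 positions resulted. Of these, 1 was found in all 3 lists, from 42302452 to 42315303, and 2 were found in replicates 1 and 3, at the third and last blocks.

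Of the 12 peaks, 9 were overlapped in both other lists, 4 of 4 in replicate 1, 2 of 3 in replicate 2 and 3 of 5 in replicate 3. The share of all peaks overlapped in both other lists was 32.4% in replicate 1, 22.2% in replicate 2 and 26.5% in replicate 3. With overlap of at least 50% of both peaks, 3 of the 12 were shared with both other lists, 1 in each, beside 20.1%, 13.5% and 16.0% of all peaks. As the gene was chosen for its recurrence in these lists, nothing is read from these counts.

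Summits, the base of highest pileup in a peak, marked 10 places along the gene when those within 500 bp were joined. The same 10 places resulted with 100 bp and with 1000 bp. A summit of a second list was present at 2 places, and 0 places held summits of all 3 lists. The first shared place was at 6.89 and 6.93 kb from the gene start, where the summits of replicates 3 and 1 (42302546 and 42302588) were 42 bp apart. In that block, replicate 2 had its summit at the other end, at 42310494, or 14.84 kb. The other shared place was at 38.35 and 38.41 kb, where the summits of replicates 1 and 2 (42334010 and 42334064) were 54 bp apart. The summit of replicate 3 followed at 42335251, or 39.59 kb, which is 1187 bp beyond that of replicate 2. In the third block, replicate 1 had its summit at 30.8 kb and replicate 3 at 32.81 kb, 2007 bp apart. The remaining summits stood alone, at 19.92 kb in replicate 1, 48.99 kb in replicate 2, and 0.56 and 46.08 kb in replicate 3.

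In all, 4 of the 12 summits had a summit of another list within 500 bp, 2 of 4 in replicate 1, 1 of 3 in replicate 2 and 1 of 5 in replicate 3. Of all peaks, 35.9%, 30.1% and 32.1% had one. The median distance from a MYBL2 summit to the nearest MYBL2 summit of another list ranged from 1624 bp, for replicate 1 to replicate 3, to 6344.5 bp, for replicate 1 to replicate 2. Among peaks of the whole lists that overlapped a peak of the other list, this median was between 421 and 556 bp. Over all peaks of a list, overlapped or not, it was between 3488 and 12674 bp. The medians over MYBL2 include the 5′ peak of replicate 3, which overlapped no peak of another list. In each of the 6 ordered pairs of replicates, they lay above the median of the overlapped peaks. They lay below the median of all peaks in 4 of these pairs and above it for replicate 1 to replicate 2 and for replicate 3 to replicate 2. The gene was chosen for its recurrence, whereas the medians of all peaks include peaks without overlap. Nothing is therefore read from the comparison with all peaks. At 5 of the 12 peaks, 1 of 4, 0 of 3 and 4 of 5, the summit was within 100 bp of an end of its peak, beside 38.4%, 40.2% and 38.3% of all peaks. The nearest were 12 bp and 10 bp from an end, in the first and the third peaks of replicate 3. It was within 250 bp of an end at 2 of 4, 1 of 3 and 4 of 5 peaks. Of all peaks in replicates 1, 2 and 3, 55.7%, 58.7% and 54.6% had a summit that near to an end. The pooled share over MYBL2, 7 of 12, was close to that of the lists, but 4 of these 7 peaks were in replicate 3.

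Fragments at each summit were recovered from the authors' fold enrichment and p-value, with exact 95% Poisson intervals that cover counting error only. In replicate 1 the pileups were 12, 12, 14 and 21 fragments from the 5′ to the 3′ end. In replicate 2 they were 10, 27 and 11, and in replicate 3 they were 5, 14, 14, 25 and 10. The deepest summit of every replicate was that of the last block, with 21 (13.0 to 32.1), 27 (17.8 to 39.3) and 25 (16.2 to 36.9) fragments, a mean of 24.3 ± 3.06 (SD, n = 3). It lay in the 3′ part of the gene, at 77.5%, 77.6% and 80.0% of its length. The intervals of these 3 counts overlap. Such overlap does not show equal depth. Each summit was picked as the highest point of its peak, which the intervals ignore, and sequencing depth is unknown. The next deepest summits, of 14 (7.65 to 23.5), 11 (5.49 to 19.7) and 14 fragments, have intervals that overlap those of the deepest in each replicate. The shallowest was the 5′ peak of replicate 3, with 5 fragments (1.62 to 11.7). The other lists give no pileup at that position, so the replicates could not be compared there.

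The median pileup over MYBL2 was 13, 11 and 14 fragments, against 6 in each whole list. At 11 of the 12 peaks it exceeded the median of the list. A pileup of at least 10 was reached by 4 of 4, 3 of 3 and 4 of 5 peaks, beside 23.9%, 25.5% and 24.4% of all peaks. The deepest MYBL2 summits ranked 84, 95 and 85 in lists of 1480, 2155 and 1802 peaks, and on chromosome 20 they ranked 3, 4 and 6. Widths also lay above the median of the list at 11 of the 12 peaks. That median was 1869.5, 1557 and 1810 bp, and the 959 bp peak of replicate 2 was the exception. At least 10 kb was reached by 2 peaks, the wide peak of replicate 2 and the second peak of replicate 3, or 0 of 4, 1 of 3 and 1 of 5 peaks. In the whole lists 11.2%, 8.12% and 9.05% of peaks were that wide.

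**Figure D2:**
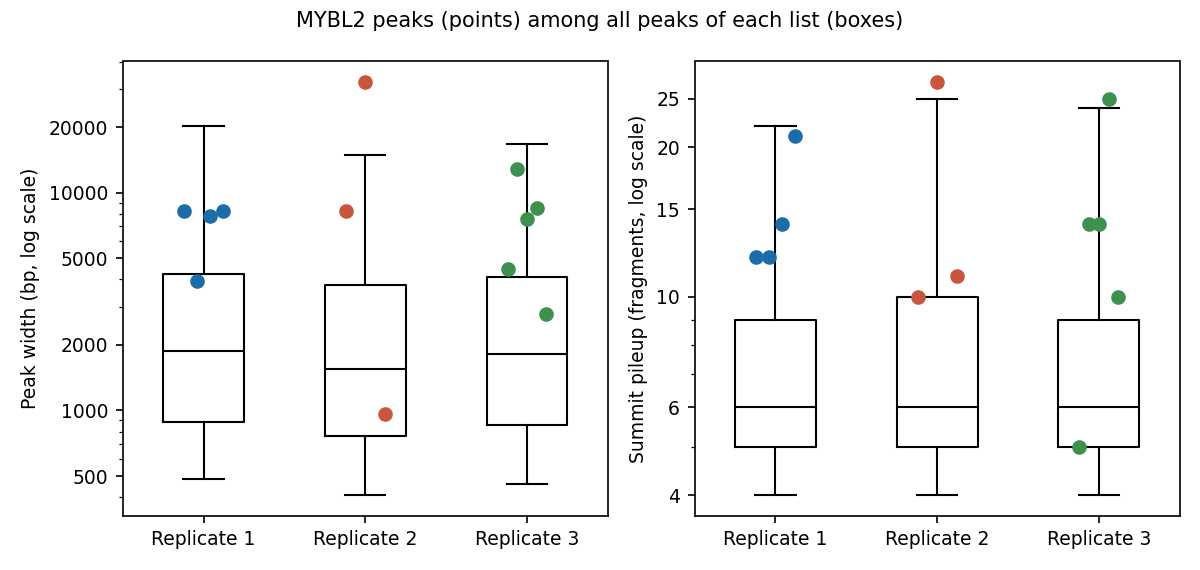
Width in bp (left) and summit pileup in fragments (right), both on log axes, of the MYBL2 peaks (points) in the 3 replicates; boxes span the 25th to 75th percentile of all peaks of the list, with the median as a line and whiskers at the 5th and 95th percentiles. In each panel, 11 of the 12 points lie above the median of their list.

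Fold enrichment is the authors' value for each peak, the pileup over an expected level after 1 is added to both. The lists hold no expected level, and the values below were computed from the fold and the recovered pileup. The sources used here do not say whether the expected level comes from the input. In replicate 1 the folds were 9.14, 4.17, 10.5 and 2.69 from the 5′ to the 3′ end. In replicate 2 they were 6.95, 7.16 and 4.37, and in replicate 3 they were 3.97, 10.9, 4.93, 13.6 and 4.34. The highest fold was at the third block in replicate 1, and at the last block in replicates 2 and 3. In replicate 1 the third peak ranked 8 of 1480 by fold, and in replicate 3 the fourth peak ranked 7 of 1802. Each was the highest of all chromosome 20 peaks of its list by fold and by −log10 q (14.5 and 24.5). In replicate 2 the best MYBL2 peak ranked 85 of 2155 by fold and 10 on chromosome 20, with a −log10 q of 14.4 that ranked 39 in the list and 3 on the chromosome. As the gene was chosen for its high fold in these lists, nothing is read from these ranks or from the comparisons of fold and −log10 q that follow.

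The median fold over MYBL2 was 6.66, 6.95 and 4.93, against 4.15, 4.16 and 3.97 in the whole lists. In replicates 1, 2 and 3, 2 of 4, 2 of 3 and 2 of 5 peaks had a fold of at least 5, beside 16.2%, 26.7% and 20.9% of all peaks. A −log10 q of at least 5 was reached by 2 of 4, 2 of 3 and 3 of 5 peaks, beside 13.4%, 15.6% and 16.9%. The weakest by fold was the last peak of replicate 1, which 96.1% of its list exceeded. It was also the deepest MYBL2 summit of that replicate.

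Pileup and fold gave different pictures of the last block. The pileups of 21, 27 and 25 fragments differed by at most 1.29 times. The folds of 2.69, 7.16 and 13.6 differed by 5.05 times, with a mean of 7.80 ± 5.46 (SD, n = 3). The expected level at these summits was 7.19, 2.91 and 0.918 fragments, a range of 7.83 times. It stood at 17.0, 7.29 and 2.45 times the lowest level of its list. The summits of replicates 1 and 2 were only 54 bp apart, and their expected levels still were 7.19 and 2.91. The order of the replicates by fold at this block is the reverse of their order by expected level. The expected level was computed from the fold and the pileup, so with pileups this close the reverse order follows from the calculation. The intervals of the pileups overlap, which does not show equal depth.

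At the first block the expected level was lower in every replicate than at the last. There it was 0.423 in replicate 1 and 0.374 in replicate 3, both within 0.5% of the lowest level of the list, with folds of 9.14 and 10.9 from 12 and 14 fragments. In replicate 2, 10 fragments over 0.583 gave 6.95. The summit of replicate 1 in the third block also lay at the lowest level of its list, 0.422, and its 14 fragments gave a fold of 10.5. In the same block 14 fragments of replicate 3 gave 4.93, over an expected level of 2.04. The same pileup, 12 fragments, gave folds of 9.14 and 4.17 at the first and second peaks of replicate 1, over 0.423 and 2.11. Of the 12 summits, 3 were within 0.5% of the lowest expected level, 2 in replicate 1 and 1 in replicate 3. Of all peaks, 50.6%, 42.7% and 40.2% were.

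**Figure D3:**
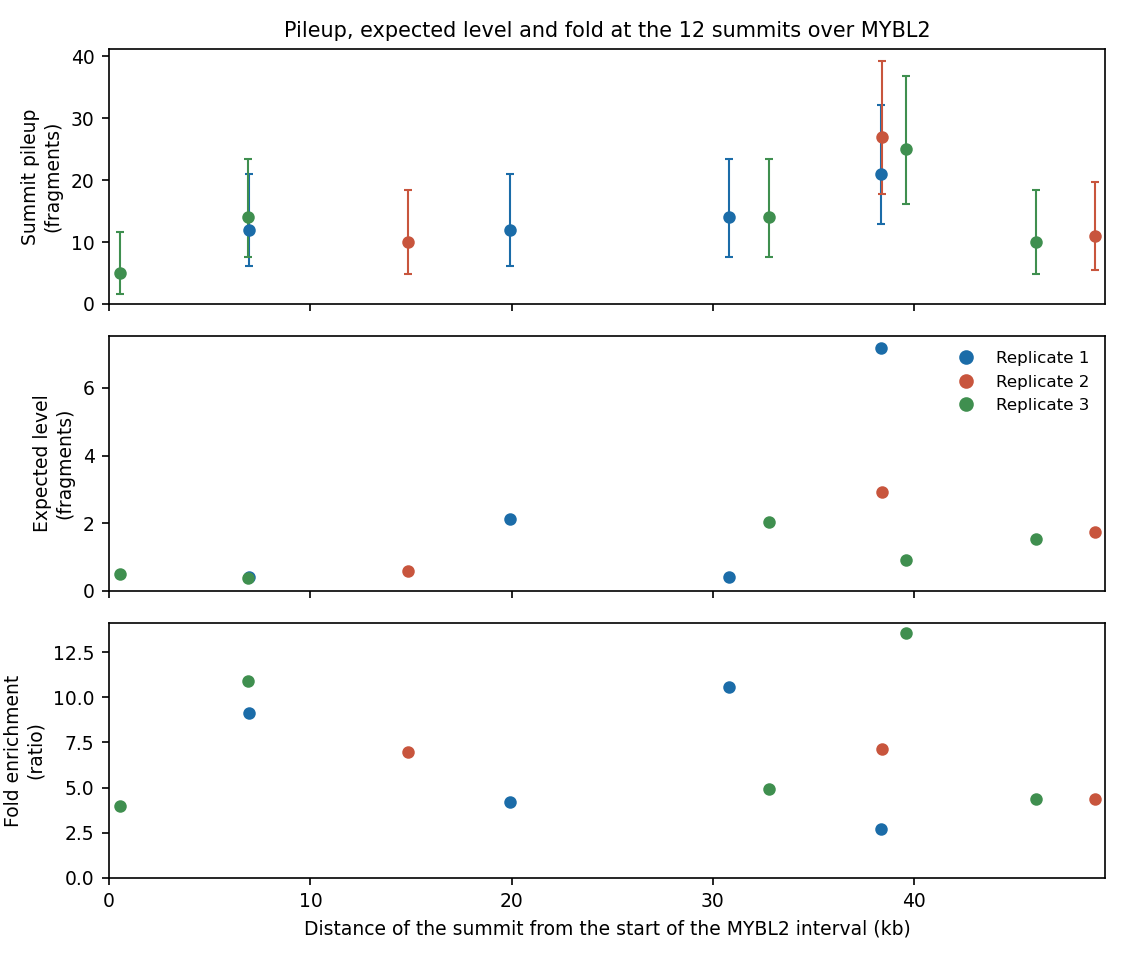
Summit pileup with exact 95% Poisson intervals (top), expected level (middle), both in fragments, and the authors' fold enrichment (bottom) at the 12 MYBL2 summits, against distance from the start of the interval in kb; colours mark the replicates. Near 38 to 40 kb the pileups of 21, 27 and 25 stand close together, while the expected levels of 7.19, 2.91 and 0.918 and the folds of 2.69, 7.16 and 13.6 are spread in opposite order. The expected level was computed from the fold and the pileup, so this opposite order follows from the calculation.

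To set the gene beside stretches of equal length, the genome was cut into 62556 windows of the same length as MYBL2. The MYBL2 window was set on a gene chosen for its peaks, whereas borders of the other windows can split a group of peaks. The counts therefore do not rank MYBL2 among genes. Apart from MYBL2, 2406 windows held a peak of any list and 591 held a peak of every list. At least 3 peaks in every list, as over MYBL2, were found in 31 other windows, 2 of them on chromosome 20. At least as many as over MYBL2 in each replicate were found in 4. The 3 windows most like it, by the summed difference in number of peaks over the 3 replicates, lay on chromosome 10 from 120775799 to 120825276, on chromosome 14 from 21671365 to 21720842 and on chromosome 14 from 56058575 to 56108052. The first held 4, 3 and 5 peaks, the same numbers as MYBL2, and both others held 3, 3 and 5. Peaks covered 11.3, 30.2 and 12.9 kb of these windows on average over the replicates, and 35.3 kb of MYBL2. These windows are given by position, since no gene could be assigned to them.

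**Figure D4:**
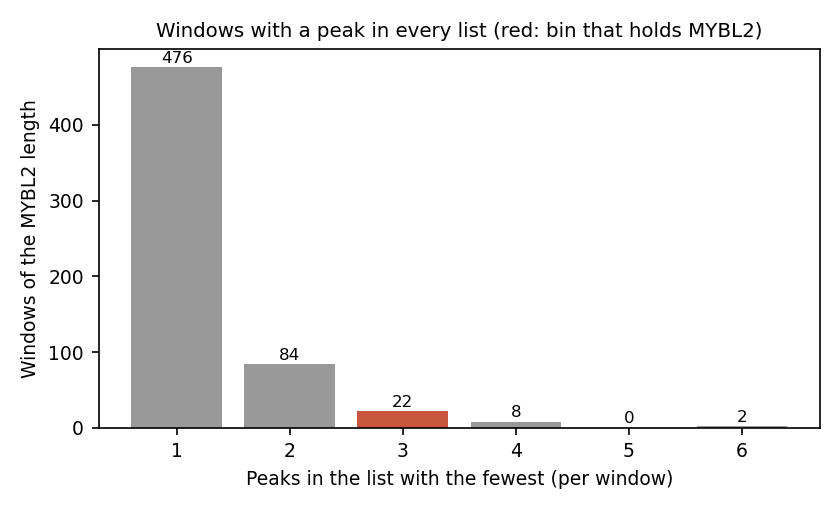
Number of windows of the MYBL2 length (vertical axis) by the number of peaks in whichever list has the fewest (horizontal axis), for windows with a peak in every list. The red bar, with 22 windows, holds MYBL2; 10 windows had at least 4 peaks in every list.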

How the data were processed

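The 3 anti-RBM8A immunoprecipitates each had 1 peak list, called on that replicate alone, as the peak names in the deposited lists show. The tools named per the submitters' processing notes are MACS2, HISAT2, SAMtools, GATK and FastQC. Their versions and settings, and the caller's control, are not stated there. Those notes list hg38 as the build, while scaffolds such as chrUn_gl000220 carry hg19 names, so positions were taken as hg19, unconverted and counted from 1. For each peak the deposited lists hold a fold enrichment (a ratio), the −log10 of a p-value and the −log10 of a q-value, as the authors' caller gave them. The deposited score is 10 times the −log10 q without decimals and was not used. The interval of MYBL2 was given with the choice of the gene.

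Pileups up to 400 were searched for the whole number that gave both fold and −log10 p, within 0.0005, under the caller's Poisson formula with 1 added to pileup and expected level. One was found for 99.8% ± 0.083 of peaks (SD, n = 3) and for 12 of 12 over MYBL2. The search was tested on peaks simulated with the same formula, and the interval functions on a few made-up intervals. Relative to the pileup, the simulated expected levels did not reach that of the last MYBL2 peak of replicate 1. Windows used hg19 chromosome lengths of pyranges 0.1.4. On chromosome 20 they were laid out from the MYBL2 interval, elsewhere from the first base. Work was done in Python 3.11.15 with scipy 1.17.1, numpy 2.4.6, matplotlib 3.10.9 and pandas 2.3.3.

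The gene, the rule and the comparisons were chosen with earlier results of these data known. The rule for names took MYBL2, with every peak over it, and the 3 windows most like it. Genes that work with B-Myb, its target genes and the other exon junction complex genes were to be added only with an hg19 annotation and were not analysed here. No test was run. Alternatives were a stricter q, peaks under 10 kb, other borders of the interval, stricter sharing, other distances between summits, a tolerance of 0.005, and leaving out each replicate.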

Additional observations from a re-analysis of the deposited data

How the results depend on the processing

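Of 54 alternative values for 9 results, 38 moved by less than the spread and 16 by more. The spread was 1 SD over replicates for means. For the share covered in all 3 it was the SD of the share per replicate (13.3 points), and for the distance between summits the SD of the medians of the 6 ordered pairs (1999 bp). Counts of positions, places and windows were held to 1.5 times. The mean number of peaks per replicate was 4 with summits inside the interval and with borders extended by 10 kb, 3.33 among peaks under 10 kb, also 3.33 at a −log10 q of 3 or more, and 2.33 at 5 or more. That last filter lowered the covered share of the gene to 57.5% per replicate and to 31.9% in all 3. The cutoff of 3 gave 39.2% in all 3 and a mean of the median folds of 8.004 in place of 6.18. Among peaks under 10 kb, the covered share was 40.9% per replicate. Positions in all 3 numbered 0 and covered 0%, since the wide peak of replicate 2 and the second peak of replicate 3 are then left out. Positions in all 3 also numbered 0 with summits within 100 or 500 bp. Without 1 replicate, peaks numbered 3.5 to 4.5, positions in both remaining lists 1 to 3, summit places 6 to 8, and covered shares 65.1% to 78.3% per replicate and 55.8% to 61.6% in both. Without replicate 2, positions numbered 3, and without replicate 3 they numbered 2, since fewer peaks then join them. Summit places numbered 6 without replicate 3, which has 5 of the 12. The mean of the median folds was 5.79 to 6.80, that of the median pileups 12 to 13.5, and the median distance between nearest summits 2007 to 5087 bp, against 4000.5 bp. Windows with as many peaks in every list as the lowest count over MYBL2 numbered 31, 36 with windows moved by 50% of their length, and 15 to 61 without 1 replicate (61 without replicate 1, 15 without replicate 2, where that count is 4, and 51 without replicate 3). Both window alternatives were added after the data were seen. No paired analysis was possible because the input samples that share the replicate numbers were not analysed here. Single peaks over MYBL2 rest on 5 to 27 fragments at the summit, and that limits their precision.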
